A study of Nothobranchius furzeri and Aphyosemion australe and Iconisemion striatum with 145 samples.

Results

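The transcripts of 86 DNA repair genes were examined in the African turquoise killifish, *Nothobranchius furzeri*. They are the rows of its count table whose gene symbols match a fixed list of repair gene names, from *xrcc* and *ercc* to *mus81*, out of 25122 rows in all, and the rule uses symbols alone, although it was written with earlier results of these data known. The libraries came from 4 pools of 8 to 10 embryos at the pre-diapause stage, which the labels place at 15 to 22 somites, when Kupffer's vesicle, a transient ciliated organ, is present. Chorion, enveloping layer and yolk had been dissected away, and the labels name no genotype or treatment for these pools, while the study lists its fish as the GRZ strain. The methods describe first clutches of young parents, from which most embryos were expected to skip diapause. Each value is therefore an average over all cells of several pooled embryos, and fewer cells of a type and less RNA per cell cannot be told apart. The series also holds 6 lyretail and 5 red-striped killifish libraries of the same stage, counted on 38810 features of another genome that the files do not pair with gene names, and single-embryo libraries of transcription factor knockouts and their controls. Repair genes in those libraries are not analysed here, so all results below describe 1 group of 4 libraries.

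Cells repair damaged DNA by a set of pathways. Base excision and single-strand break repair replaces single damaged bases, nucleotide excision repair removes bulky lesions with a stretch of the strand around them, and mismatch repair corrects errors left by DNA polymerases. Double-strand breaks are joined end to end or copied from the sister chromatid by homologous recombination, while the Fanconi anaemia pathway handles crosslinks between strands. Checkpoint kinases halt the cell cycle while lesions persist, and translesion polymerases copy past them. Dividing embryonic cells meet many such lesions during DNA replication, and several of these genes are known from other vertebrates to be transcribed mainly in proliferating cells.

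Library totals ranged from 25985703 to 41191533 counts. Levels are given as CPM, counts scaled to a total of 1000000 per library. Each pair of libraries differed by more than counting noise, with a chi-square per degree of freedom of at least 82.9. Library 2 stood apart in its 10 most abundant genes, which took 7.15% of its counts against 6.20% to 6.32% in the others. Ribosomal protein genes took 15.3% of the counts in library 3, against 9.54% to 11.8% in the others. Of the markers fixed for the embryo body, 6 of 8 somite and muscle precursor names, 6 of 6 neural names and 3 of 5 notochord and floor plate names were listed. Their summed levels were 206 to 339 CPM, 242 to 360 CPM and 53.5 to 121 CPM, and each sum was highest in library 2 and second highest in library 4. Single markers differed from these sums, since 3 of the 6 neural genes, *sox2*, *pax6* and *elavl3*, were lowest in library 2. Among the 7 somite rows 1, a copy of *pax3*, was lowest there too. The enveloping layer was represented by *grhl3* alone, at 2.55 to 4.07 CPM, with 4 of its 5 names not listed. Yolk syncytial layer markers summed to 136 CPM in library 1, 75.5 CPM in library 2, 111 CPM in library 3 and 59.4 CPM in library 4. Heart markers, 6 of 6 listed with *hand2* at 0 in library 1, summed to 407, 230.4, 426 and 259.8 CPM, of which *myl7* gave 378, 204, 399.5 and 229.6 CPM, while *nkx2-5* and *gata4* were highest in library 2. Germ cell markers, 6 of 7 listed, summed to 11.6 to 21.9 CPM. Ciliated Kupffer's vesicle markers, 2 of 4 names listed, summed to 13.3, 8.62, 11.5 and 11.8 CPM. Of their 3 rows, 2 were lowest in library 2 and 0 highest there.

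Nearly all repair genes were transcribed at this stage. Of the 86, 81 reached 1 CPM in every library, against 53.7% of all rows of the table, and 49 reached 10 CPM in every library, against 26.4% of all rows. The rows of the table include genes listed only by number, whereas the repair genes were picked by symbol, so the sets are not alike. The repair genes took 0.290% of the counts in library 1, 0.477% in library 2, 0.234% in library 3 and 0.339% in library 4 (mean 0.335% ± 0.104, SD, n = 4). A single gene, *apex1*, supplied between 21.9% and 42.7% of these counts, and without it the share was 0.223% ± 0.0378 (SD, n = 4). Counts were not divided by transcript length, since no lengths of the genome build that was counted were used, so levels are compared here between libraries and not between genes.

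**Figure D1:**
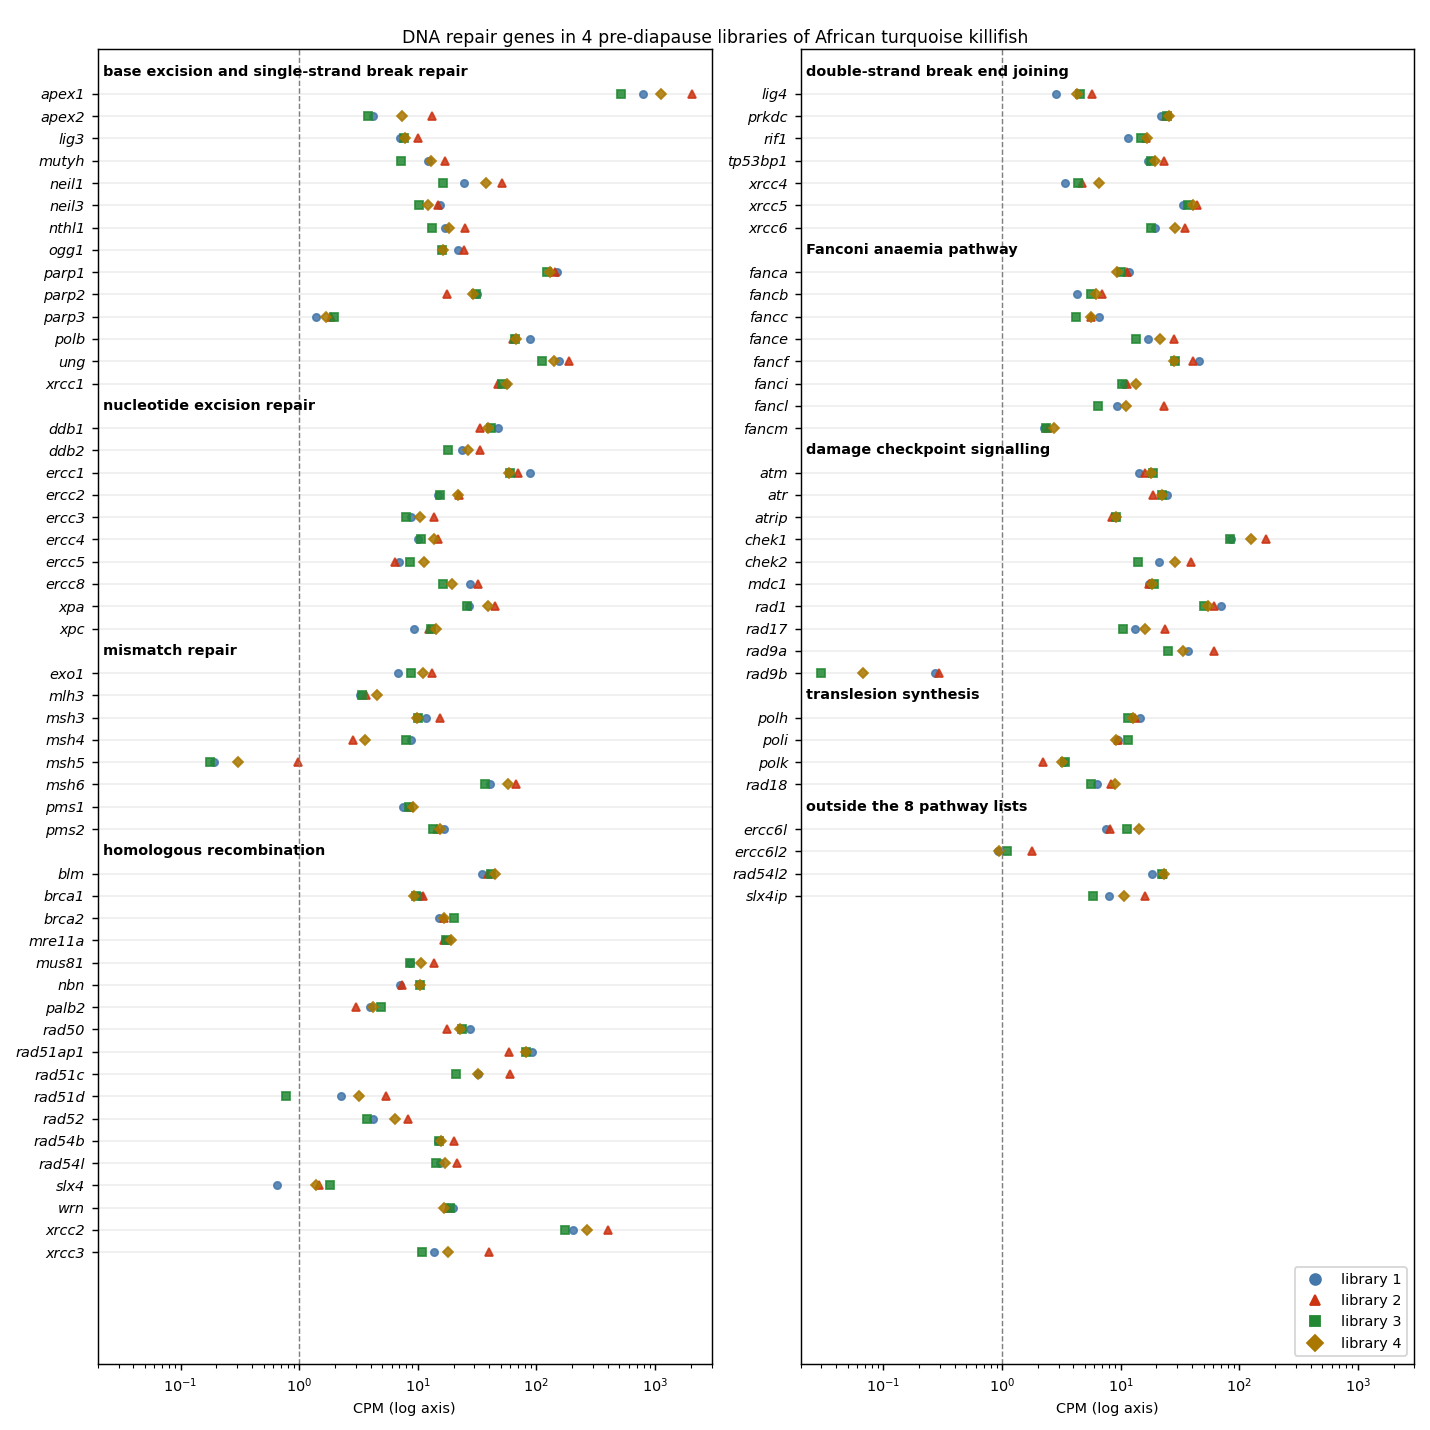
Each row is 1 of 83 repair genes shown and each point its CPM in 1 of the 4 libraries, on a log axis, grouped by repair pathway and in alphabetical order within it, with a dashed line at 1 CPM. Points of 78 of the 83 genes lie at or above the line in every library, and *apex1* and *xrcc3* are spread widely with library 2 on the right, whereas *atrip*, *mdc1* and *mre11a* nearly coincide.

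The 5 genes below 1 CPM in at least 1 library were *msh5*, *rad9b*, *slx4*, *ercc6l2* and *rad51d*. *msh5*, a partner of *msh4* known for meiotic crossing over, had 0.192, 0.971, 0.177 and 0.302 CPM in libraries 1 to 4, from 5 to 40 counts. *rad9b*, a second form of the checkpoint clamp subunit RAD9 known from mammals, had 0.269, 0.291, 0.0295 and 0.0671 CPM, from 1 to 12 counts. These were the only members that stayed below the limit in every library. *slx4*, the scaffold of structure-specific nucleases, had 0.654 CPM in library 1 and 1.37 to 1.83 CPM in the others. *ercc6l2*, a helicase-like relative of ERCC6, was below the limit in libraries 1 and 4, at 0.924 and 0.939 CPM. *rad51d*, which acts in strand exchange, fell below it in library 3 alone, at 0.766 CPM against 5.34 CPM in library 2.

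How far a gene varied between pools was measured by the coefficient of variation of CPM over the 4 libraries, the SD as a percentage of the mean, after subtracting the variance that counting alone gives. Over the 84 repair genes with a mean of 20 or more counts, its median was 19.9%, with a middle range of 11.6% to 30.0%. Over all 15938 genes with as many counts the median was 25.8% and the middle range 17.1% to 37.1%. A separate list of 55 other repair genes, described below, had a median of 24.5% and a middle range of 14.5% to 32.9%. The lower median thus holds for the genes that the rule picked and not for repair genes in general. Repair genes with a remaining variation under 10% numbered 17 of 84, or 20.2%, against 9.27% of all genes. At the other end, 7 of 84 exceeded 50%, or 8.33%, against 10.5% of all genes. The highest library was at least 2-fold above the lowest for 20 of the 84, or 23.8%, against 42.6% of all genes. No test compares repair genes with other genes here, and the sets were not matched for level. The median level was 16.2 CPM over the 86 repair genes and 10.1 CPM over the 15938 genes.

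**Figure D2:**
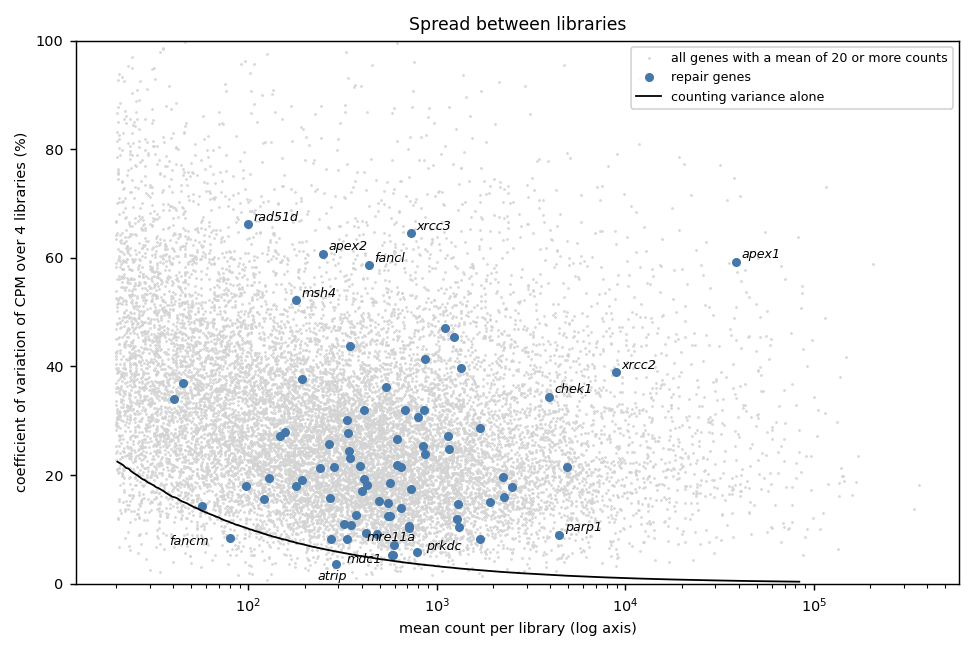
Coefficient of variation of CPM over the 4 libraries in percent against the mean count per library on a log axis, for 81 repair genes (blue) and all 15938 genes with a mean of 20 or more counts (grey), with the variation expected from counting alone as a line. The axis ends at 100%, which leaves out 44 genes, among them *cdc6*. *rad51d* lies highest of the repair genes shown, at 66.2%, while *atrip* and *fancm* lie below the counting line.

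The 17 genes with the least variation came from several pathways. *atrip*, which brings the kinase ATR to single-stranded DNA, had 9.08, 8.45, 9.11 and 9.09 CPM, a variation below that of counting. *mdc1*, which binds phosphorylated histone H2AX at breaks, had 17.3, 17.2, 19.2 and 18.3 CPM. *prkdc*, the catalytic subunit of DNA-dependent protein kinase, had 22.1, 24.3, 24.4 and 25.5 CPM, and *mre11a*, the nuclease of the break-sensing MRN complex, had 18.05, 16.7, 17.3 and 18.9 CPM. *brca1*, which directs breaks to recombination, had 10.4, 11.1, 9.64 and 9.25 CPM, and *fancm*, a translocase at stalled forks, had 2.27, 2.45, 2.36 and 2.75 CPM. In each of these the highest library lay at most 1.21-fold above the lowest. The others were *parp1*, *parp3*, *xrcc1*, *fanca*, *atr*, *wrn*, *pms1*, *pms2*, *polh*, *poli* and *rad54l2*. For *fancm* and *parp3*, counting alone gives a variation of 11.3% and 13.5%. Their low remaining variation therefore cannot show that they were steady between pools.

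Of the genes with a remaining variation over 50%, *rad51d*, *xrcc3*, *apex1*, *apex2* and *fancl* had their highest level in library 2 and *msh4* its lowest. Among the 84 repair genes, 42 were highest in library 2, against 34.4% of all genes. Library 1 held the highest value of 17, or 20.2%, against 32.3%, library 3 of 9, or 10.7%, against 14.6%, and library 4 of 16, against 18.6%. The lowest value was in library 1 for 26 genes, or 31.0%, against 15.2% of all genes, in library 2 for 14, or 16.7%, against 34.9%, in library 3 for 37, or 44.0%, against 37.6%, and in library 4 for 7, against 12.2%. Libraries 2 and 4 held the highest pair of values for 40 of the 84, or 47.6%, against 28.8% of all genes. After TMM scaling, which corrects for differences in composition between libraries, this fell to 29 of 84, or 34.5%, against 27.0% of all genes, and DESeq2 size factors also gave 29, against 27.2%. The ranks of libraries 1 and 3 depended on the scaling as well: with TMM, library 1 was lowest for 40 of the 84 and library 3 for 19, against 22.7% and 25.3% of all genes, and library 3 was highest for 24, against 27.8%. Library 2 was highest for 45 genes with TMM, against 35.7% of all genes. Relative to the mean of the other 3 libraries, library 2 was higher by a median log2 difference of 0.24 over the repair genes, whereas the median over all genes was 0.01. At least 2-fold higher levels in library 2 were found for 7 of 84 genes, which is 8.33%, against 8.12% of all genes, and at least 2-fold lower levels for 1, against 10.1%. The count of 7 became 13 without library 4, when 12.2% of all genes passed on CPM with 0.1 added. It became 4 of 62 without genes whose models are known to overlap another, against 7.52% of all genes, overlapping or not, with 0.1 CPM added. Since library 2 is a single pool of the same group, no test is possible, and these shares describe 4 pools.

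**Figure D3:**
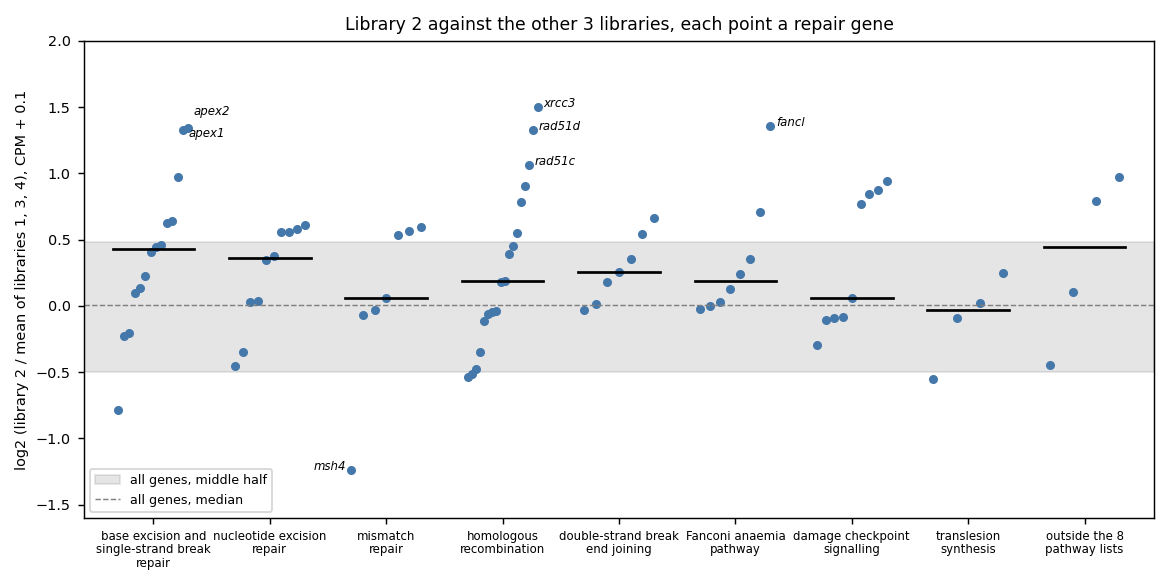
Log2 difference between library 2 and the mean of libraries 1, 3 and 4, with 0.1 CPM added, for 81 repair genes with a mean of 20 or more counts (points) by pathway, with the median of the genes drawn in each pathway as a black bar and the median and middle range (quartiles) of all genes as a dashed line and grey band. Medians lie above 0 in 8 of the 9 columns, with translesion synthesis at -0.03, and the 7 genes past 2-fold are named.

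The 19 homologous recombination members differed in their highest library, which was library 2 for 10 of them, against 34.4% of all genes. *rad51c*, *rad51d*, *xrcc2* and *xrcc3*, whose products form complexes that act in strand exchange, were all highest in library 2. *xrcc3* had 13.8, 40.2, 10.8 and 17.9 CPM, *rad51c* had 32.3, 59.7, 21.0 and 32.2 CPM, and *xrcc2* had 204, 404, 174 and 268 CPM. *rad51d* had 2.27, 5.34, 0.766 and 3.19 CPM. Its gene model overlaps that of *lig3* in RefSeq, and since the kit does not mark strand, reads from the overlap cannot be told apart. The group of 4 was put together after its values were seen. *rad52*, a recombination mediator in yeast, also had its highest values in libraries 2 and 4, with 4.16, 8.30, 3.71 and 6.47 CPM.

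The breast cancer susceptibility gene *brca2* and its partner did not share this pattern. *brca2* had 15.2, 16.5, 20.1 and 16.5 CPM, with library 3 highest, and *palb2*, which links BRCA2 to BRCA1, had 3.93, 3.01, 4.89 and 4.22 CPM, with library 2 lowest. *rad51ap1*, which promotes strand invasion, was also lowest in library 2, at 59.0 CPM against 81.5 to 92.1 CPM. The ATPase *rad50* of the MRN complex was lowest there too, at 17.6 CPM against 22.7 to 27.3 CPM, while *nbn*, another subunit, had 7.04, 7.28, 10.3 and 10.5 CPM. Of the helicases, *blm* had 35.02 to 45.0 CPM and *wrn* 16.7 to 19.8 CPM. The motor proteins *rad54l* and *rad54b* were highest in library 2, at 21.3 and 20.1 CPM against 14.1 to 17.1 CPM and 14.9 to 15.8 CPM. The nuclease *mus81* had 8.55 to 10.7 CPM outside library 2 and 13.7 CPM in it.

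In base excision repair, the abasic site endonucleases *apex1* and *apex2* varied together. *apex1*, which cuts the strand at sites that have lost their base, had 790.3, 2037, 513 and 1131 CPM in libraries 1 to 4. *apex2*, its paralog, had 4.19, 13.2, 3.77 and 7.41 CPM, with libraries 2 and 4 again highest. Their log2 count ratio stayed within 0.47 across the libraries, while each gene's own level spanned 3.97-fold and 3.49-fold. Among the DNA glycosylases, which remove damaged bases, *neil1* ranged from 16.4 CPM in library 3 to 51.2 CPM in library 2, *mutyh* from 7.28 to 16.9 CPM and *nthl1* from 13.1 to 24.9 CPM in the same libraries. The uracil glycosylase *ung* had 156, 187, 110.5 and 140.1 CPM, and *ogg1*, which removes oxidized guanine, 15.9 to 24.5 CPM. *neil3* had 10.1 to 15.3 CPM, with library 1 highest on CPM and library 2 after TMM scaling. The gene models of *apex1*, *neil1*, *neil3* and *nthl1* each overlap another in RefSeq, so reads from the overlaps cannot be told apart.

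Gap filling and ligation varied less, with a remaining variation of 7.79% to 15.9% for *polb*, *xrcc1* and *lig3* against 17.4% to 47.1% for the glycosylases above. DNA polymerase beta, *polb*, which fills the gap, had 87.9 CPM in library 1 and 63.1 to 67.7 CPM in the others. The scaffold *xrcc1* had 47.2 to 56.8 CPM and the ligase *lig3* 7.004 to 9.95 CPM. Of the poly(ADP-ribose) polymerases that sense nicks, *parp1* had 150.2, 144, 123 and 129.9 CPM. *parp2* was lowest in library 2, with 31.6, 17.6, 30.8 and 29.2 CPM, and stood apart there from the other 3 libraries. *parp3* had 1.39 to 1.95 CPM.

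Nucleotide excision repair held 10 members, all at 1 CPM or more in every library, with a median log2 difference of 0.36 for library 2. The lesion sensors split: *ddb2*, the subunit that binds ultraviolet photoproducts, had 23.6, 33.3, 17.8 and 26.5 CPM, while its partner *ddb1*, also the adaptor of CUL4 ubiquitin ligases, had 47.6, 33.3, 41.1 and 38.8 CPM and was lowest in library 2. *xpc*, which recognizes distorted DNA, had 9.24 to 14.1 CPM, and *xpa*, which verifies the lesion, 26.0 to 44.9 CPM with library 2 highest. The helicases of transcription factor TFIIH, *ercc2* and *ercc3*, had 14.7 to 22.1 CPM and 7.99 to 13.6 CPM. The nuclease subunits *ercc1* and *ercc4* had their highest values in different libraries, *ercc1* in library 1 at 88.4 CPM and *ercc4* in library 2 at 14.9 CPM. *ercc5*, the nuclease that cuts on the other side of the lesion, had 6.93, 6.46, 8.61 and 11.2 CPM, and *ercc8*, of transcription-coupled repair, 16.2 to 32.2 CPM.

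In mismatch repair, *msh6*, a subunit that recognizes mismatched bases, had 40.3, 67.5, 36.8 and 57.1 CPM, with libraries 2 and 4 highest. *msh3*, which recognizes larger loops, had 11.8, 15.3, 10.05 and 9.76 CPM. The endonuclease subunit *pms2* had 13.4 to 16.6 CPM, *pms1* 7.47 to 9.09 CPM, *mlh3* 3.23 to 4.53 CPM and the exonuclease *exo1* 6.81 to 13.2 CPM. *msh4*, known for meiotic recombination, had 8.77, 2.82, 7.96 and 3.59 CPM in libraries 1 to 4. Libraries 1 and 3 thus lay above libraries 2 and 4. *msh5* was highest in library 2. Its mean of 15 counts lies under the minimum of 20 used for spread, so *msh4* is not compared with it. The gene models of *msh4* and *msh5* each overlap another in RefSeq.

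Among the 7 members for end joining, *xrcc5* and *xrcc6*, which encode the Ku80 and Ku70 subunits that cap broken ends, were both highest in library 2. *xrcc6* had 19.5, 35.2, 18.01 and 28.9 CPM and *xrcc5* 33.4, 44.1, 37.0 and 40.6 CPM, and their log2 count ratio moved from 0.33 in library 2 to 1.04 in library 3. The ligase pair *xrcc4* and *lig4* had 3.42 to 6.61 CPM and 2.85 to 5.73 CPM. RefSeq gives the symbol xrcc4 to another numbered row, so the identity of *xrcc4* is uncertain. *tp53bp1* and *rif1*, which shield ends from resection, had 16.9 to 23.0 CPM and 11.6 to 16.6 CPM.

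Of the 8 Fanconi anaemia genes, *fancl*, the ubiquitin ligase of the core complex, varied most, with 9.27, 23.2, 6.48 and 11.2 CPM. Its gene model overlaps that of *vrk2* in RefSeq. The core complex subunit *fance* had 17.2, 28.3, 13.4 and 21.5 CPM, again with libraries 2 and 4 highest. *fancf* had 45.9 and 40.4 CPM in libraries 1 and 2 and 28.5 and 28.1 CPM in libraries 3 and 4. *fanca*, *fancb* and *fancc* had 9.39 to 11.9 CPM, 4.31 to 6.92 CPM and 4.21 to 6.62 CPM, and *fanci*, a target of the complex, 10.3 to 13.5 CPM.

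In checkpoint signalling, the remaining variation was 34.4% for *chek1* and 41.3% for *chek2*, the effector kinases, and 9.84% for *atr* and 11.6% for *atm*, the kinases upstream of them. *chek1*, which acts at stalled replication forks, had 85.5, 168, 84.1 and 126 CPM, and *chek2*, which acts after breaks, 21.1, 39.0, 14.1 and 28.6 CPM. Both were highest in library 2 and second highest in library 4. *atr* had 24.5, 18.9, 22.5 and 22.4 CPM and *atm* 14.2, 15.97, 18.9 and 18.04 CPM. The clamp loader *rad17* and the clamp subunit *rad9a* were highest in library 2, at 23.8 CPM against 10.4 to 16.1 CPM and 61.7 CPM against 25.3 to 37.3 CPM. The clamp subunit *rad1* had 70.7, 61.0, 50.5 and 54.2 CPM. The gene models of *chek2*, *rad9a* and *rad1* overlap others in RefSeq.

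None of the 4 translesion synthesis members was highest in library 2, where 34.4% of all genes were. With so few members this does not set the pathway apart. The polymerases *polh*, *poli* and *polk* had 11.6 to 14.5 CPM, 9.12 to 11.5 CPM and 2.23 to 3.42 CPM, and *rad18*, which ubiquitinates the sliding clamp PCNA at stalled forks, 5.66 to 8.95 CPM. *polk* was lowest in library 2, at 2.23 CPM against 3.22 to 3.42 CPM. The 4 rows outside the pathway lists include *rad54l2* and *ercc6l*, whose products are known as a chromatin remodeller and a mitotic translocase, at 18.4 to 23.3 CPM and 7.54 to 14.2 CPM. *slx4ip*, a partner of SLX4, had 7.93, 16.1, 5.89 and 10.7 CPM.

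Pairs of genes whose products work together were compared by the log2 ratio of their counts in each library. Because lengths were not divided out, the distance of a ratio from 0 says nothing of the proteins, whereas its range over libraries does not depend on length. The range was 0.27 to 1.20 over the 17 pairs shown, with a median of 0.71. It was narrow for *atrip*/*atr* at 0.27, and for *mus81* with *eme1*, listed as LOC107395239, at 0.28. It was widest for *ddb2*/*ddb1*, from -1.20 in library 3 to -0.0021 in library 2, followed by *ercc1*/*ercc4* at 1.05 and *parp2*/*parp1* at 1.02. *chek1*/*chek2* moved by 0.56, and *brca2*/*palb2* by 0.51. When signs were flipped in every combination, a two-sided exact permutation test, 16 of 19 pairs kept the same sign in 4 of 4 libraries and had the smallest p that 4 libraries allow, 0.125, or 0.148 after Benjamini-Hochberg adjustment over the pairs. No pair can pass 0.05 in this design, and since the sign depends on length the test is of no further use here.

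**Figure D4:**
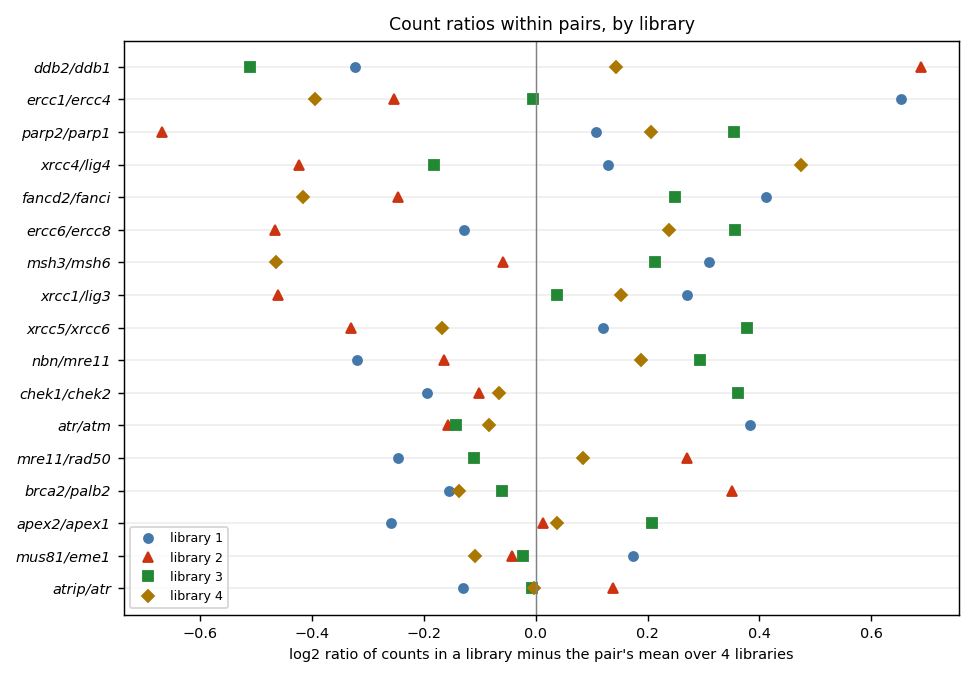
For each of 17 pairs, sorted by range with the widest on top, the log2 ratio of counts in each library minus the mean of the pair over the 4 libraries. Points of *atrip*/*atr* lie within 0.27 of each other and those of *ddb2*/*ddb1* within 1.20.

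Library 2 was high for the genes of DNA replication as well. Of 36 listed replication genes with a mean of 20 or more counts, 29 had their highest level in library 2, or 80.6%, against 34.4% of all genes. The median log2 difference of the list between library 2 and the others was 0.61, against 0.24 for the repair genes and 0.01 for all genes. The sliding clamp *pcna* had 2539, 5588, 1822 and 3377 CPM, and the licensing factor *cdc6* had 3.12, 45.5, 3.06 and 23.5 CPM. Their log2 differences, 1.12 and 2.19, lay above the median of the list. Other replication genes went the other way. *rpa3*, at 510, 391, 839 and 613 CPM, was the only 1 of the 36 lowest in library 2, and *rfc1* had 16.3, 19.8, 33.2 and 32.5 CPM. Among 55 other repair genes listed in the table, 54 reached 1 CPM in every library, against 53.7% of all rows. Of these 55, 31 were highest in library 2, or 56.4%, against 34.4% of all genes, and their median log2 difference was 0.41. A further 7 repair genes are listed only by number and named in RefSeq, namely *ercc6*, *eme1*, *slx1b*, *polq*, *fancd2*, *fancg* and *h2ax*. Their means ran from 6.65 to 39.3 CPM. Of these 7, *eme1*, *fancg* and *slx1b* were highest in library 2, against 34.4% of all genes. *fancd2* was lowest there, at 11.4 CPM against 12.1 to 16.9 CPM, and so was *polq*, at 6.04 CPM against 6.12 to 7.71 CPM. Summed somite, neural, notochord and germ cell markers were also highest in library 2. The heart and Kupffer's vesicle sums were lowest there. Single markers within the somite, neural, heart, Kupffer's vesicle and germ cell lists differed in direction, however. The part of the marker genes and of the replication genes in the pattern was not tested.

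**Figure D5:**
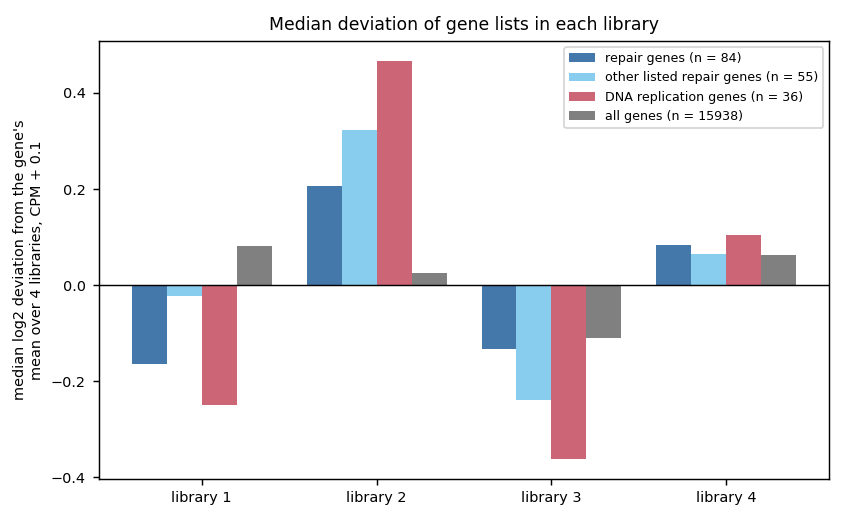
Median log2 deviation of each gene from its own mean over the 4 libraries, with 0.1 CPM added, for repair genes, other listed repair genes, DNA replication genes and all genes with a mean of 20 or more counts. In library 2 the medians are 0.21, 0.32, 0.47 and 0.03, and in library 3 they are -0.13, -0.24, -0.36 and -0.11. In library 4 they are 0.08, 0.07, 0.10 and 0.06, so the lists there lie close to all genes.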

How the data were processed

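The authors deposited read counts per gene, as whole numbers without normalization. Amplified cDNA was sequenced without molecular identifiers. The submitters' processing notes list Trim Galore 0.4.5, STAR 2.7.1a, SAMtools 1.5 and featureCounts of Subread 2.0.1, and reads mapped to several loci were left out, so that near-identical copies are undercounted. The study's resource list names Nfu_20140520 as its African turquoise killifish genome.

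Columns were matched to samples by name. CPM on library totals of 25985703 to 41191533 counts were computed with Python 3.11.15, pandas 2.3.3 and numpy 2.4.6, and figures were drawn with matplotlib 3.10.9. Alternatives used TMM factors of edgeR 4.0.16 and size factors of DESeq2 1.42.0 in R 4.3.3. The repair genes, lists and pairs were chosen with earlier results of these data known, and the summaries of library 2 after the values were seen. The planned rule for naming genes (pair members, the extremes of each pathway per length, genes under 1 CPM and those with the highest and lowest spread) could not be applied where it needs lengths, so members were named without it. Values of 3 of the 86 genes and of 2 of the 19 pairs are not reported here, although counts and medians over all members include them. The planned division by coding length and promoter motif count were not run, since no sequences of these genes were used here. The measure of spread was tested on simulated data.

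RefSeq symbols of the NfurGRZ-RIMD1 assembly, another build, matched 81 of the 86 genes and served for names and for overlaps only. The 5 without a match, *brca1*, *fanca*, *ung*, *wrn* and *xpc*, were not checked for overlap. Of the genes checked, 23 have gene models that overlap another. Those not marked in the text are *ercc1*, *fancc*, *fanci*, *fancm*, *msh6*, *nbn*, *parp1*, *parp2*, *rad50*, *rad54b* and *tp53bp1*, and their counts carry the same limit. Nothing in the labels says that the pools came from separate parents, so their spread may be technical in part.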

Additional observations from a re-analysis of the deposited data

Results flagged for a closer look

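Dixon's test was applied to 89 groups of 4 values, 86 of them repair genes, and 7 groups had an extreme value far from the rest. Chance alone flags about 1 in 20. Library 2 gave 5 of the 6 gene values and library 3 the other. Of all genes with a mean of 20 or more counts, 34.4% were highest and 34.9% lowest in library 2. The test was not run over all genes, so the 5 of 6 cannot be set against a like share. *atrip* had 8.45 CPM in library 2, against 9.08 to 9.11 CPM, although its variation over the libraries was below that expected from counting. *parp2* had 17.6 CPM in library 2, against 29.2 to 31.6 CPM. *polk* had 2.23 CPM in library 2, against 3.22 to 3.42 CPM. *rad54b* had 20.1 CPM in library 2, against 14.9 to 15.8 CPM, and *msh5* had 0.971 CPM there, against 0.177 to 0.302 CPM, from few counts. *poli* had 11.5 CPM in library 3, against 9.12 to 9.47 CPM. The share of counts on the 10 leading genes was 7.15% in library 2, against 6.20% to 6.32%.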

How the results depend on the processing

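Of 744 values recomputed under an alternative, 740 stayed within 1 SD, or within 1.5 times for counts, and 516 of these were mean CPM of single genes. Leaving out a single library cannot move a mean over 4 libraries by 1 SD, so for such means that setting was no test. The 744 leave out the counts of genes highest or lowest in libraries 1, 3 and 4, of which several passed the limit of 1.5 times. With TMM, library 3 was highest for 24 genes against 9 on CPM, and lowest for 19 against 37. Library 1 was highest for 8 against 17. The TMM shares of all genes were 27.8%, 25.3% and 22.8%. The share of counts on repair genes was 0.223% without *apex1*, an alternative chosen after seeing the data. The median CPM of checkpoint genes was 22.1, against 20.0, when only genes at 1 CPM in every library were kept. Leaving out each library in turn gave a median of 15.5 to 17.9 CPM for homologous recombination, against 17.1, and of 9.70 to 11.3 CPM for the Fanconi anaemia pathway, against 11.04, with the lowest value without library 2 in both. These medians are not divided by length. The alternatives for library 2 were also chosen after seeing the data. On TMM-scaled CPM 45 genes were highest there and 45 with DESeq2 size factors, against 42. The shares of all genes were 35.7% and 35.9%. Once genes known to overlap another gene model were left out, 31 of 62 were highest in library 2, against 34.4% of all genes. The 62 include genes without a RefSeq symbol, whose overlap was not checked. Libraries 2 and 4 held the highest pair of values for 29 genes with TMM and 29 with DESeq2, against 40. The count at least 2-fold higher in library 2 was 8 without library 1, 5 without library 3 and 13 without library 4, against 7. With 0.1 CPM added, 7.53%, 4.62% and 12.2% of all genes passed in these settings. No paired analysis was possible because only 1 group of libraries was examined. Genes with few counts, such as *rad9b* and *msh5*, limit what can be said of their variation.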
